A study of Mus musculus with 6 samples.

Results

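The hearts of wild-type mice infused with angiotensin II (Ang II) for 7 days were compared with the hearts of control mice, gene by gene. The genes compared were those with a mean of at least 1 RPKM (reads relative to transcript length and to all mapped reads) over the 4 libraries concerned, which took 11148 of the 22556 genes in the table. All groups were whole heart of wild-type mice profiled by RNA sequencing, with 2 libraries per group and 6 in all: control (0 days of infusion), 7 days and 28 days. Ang II was given subcutaneously at 1000 ng per kg per min from osmotic minipumps. The labels do not say what the controls received, the age or sex of the mice, or whether the libraries of a group are from different mice, so the p-values speak only of the spread among these libraries, some or all of which may be technical. In whole tissue, fewer cells of a type and less RNA per cell cannot be told apart, and neither can more cells and more RNA per cell.

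Ang II is the effector peptide of the renin-angiotensin system. Through its type 1 receptor it constricts vessels, raises blood pressure and acts on cardiac fibroblasts, vascular cells and myocytes. Infusion in rodents is a standard model of pressure overload, in which myocytes enlarge, fibroblasts multiply and lay down matrix, and blood leukocytes enter the tissue. The receptor gene itself, Agtr1a, stood at 10.1 and 9.22 RPKM in the controls and at 10.9 and 8.08 RPKM after 7 days, so the 2 groups overlapped (log2 change -0.04, SE 0.17; limma adjusted p = 0.904). Ace, which encodes the enzyme that makes Ang II from its precursor, rose from 10.7 and 9.599 RPKM to 20.4 and 25.9 RPKM (log2 change 1.14, SE 0.14; limma adjusted p = 0.00289).

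A change was called at a limma adjusted p under 0.05, tested on log2(RPKM + 0.5) in a fit of all 6 libraries, and every log2 change below is 7 days minus control on that scale. By this rule 1498 genes were higher (13.4% of those tested) and 259 lower (2.32%). These shares are the background for every list count below, and a count near them says little about its list. Lists close to 13.4% higher included heat shock (17.5%), angiopoietin (17.8%) and interferon and MHC genes (18.9%). Others were ion channels and calcium cycling (16.4%), unfolded protein response (16.1%) and ribosome biogenesis (15.6%). Over 2-fold changes were 384 of the higher and 53 of the lower calls. The median of all tested genes was 0.14 on the log2 scale. Median ratio scaling of the libraries moved this median to -0.01 and the split to 763 higher and 446 lower. Quantile normalization moved the median to -0.04 and the split to 745 and 565. Lists that rose also lost calls under these 2 scalings. Lysosomal genes went from 29 higher to 14 and 15, complement genes from 21 to 14 and 14, and collagen folding genes from 20 to 10 and 9. Cell cycle genes went from 34 to 27 and 27, and elastic fibre genes from 18 to 17 and 17. Leaving out control replicate 1 gave 361 higher and 54 lower calls, leaving out control replicate 2 gave 491 and 68, and leaving out the first or the second 7 day library gave 763 and 155 or 406 and 76. The libraries of the 2 groups did not overlap for 64.8% of all genes, so a lack of overlap alone says little here. Fits with a library left out leave 1 group with a lone library. Leaving out either 28 day library removed no call, so only the fits without a control or a 7 day library removed calls. Calls that stood with each of the 6 libraries left out in turn numbered 329, and gene names below are drawn from these unless a lost call is stated.

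Libraries differed little in depth: relative to control replicate 1, low RPKM values put control replicate 2 at 1.05 and the 7 day libraries at 1.17 and 1.14. Ventricular myocyte markers summed to 54927 and 55916 RPKM in the controls and to 50672 and 62315 RPKM at 7 days, with 0 of 13 called by limma. Under median ratio scaling 2 of these markers were lower and 0 higher, and under quantile normalization 5 were lower and 0 higher. Myl7 and Myl4, the atrial myosin light chains, and Sln, the atrial calcium pump regulator sarcolipin, set control replicate 2 apart from the other 3 control and 7 day libraries. Myl7 was 52.5 and 646 RPKM in the controls and 41.2 and 66.2 RPKM at 7 days. Myl4 was 32.4 and 473 against 52.6 and 53 RPKM, and Sln was 20.2 and 293 against 12.2 and 24.4 RPKM. At 28 days Myl7 was 341 and 182 RPKM, Myl4 263 and 150 RPKM and Sln 163 and 55.1 RPKM, all above both 7 day libraries. The whole list of 13 atrial markers summed to 511 and 3285 RPKM in the controls and 2856 and 3133 RPKM at 7 days, but at 7 days most of this sum was Nppa and Clu. Nppa, the atrial natriuretic peptide gene, was 215 and 1605 RPKM in the controls and 1932 and 2084 RPKM at 7 days and was not called (log2 change 1.77, SE 0.80; limma adjusted p = 0.176). Its groups did not overlap, and the miss came with controls that lay far apart, of which control replicate 2 was the higher. The part of atrial tissue in other results was not tested beyond the fits without each control.

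**Figure D1:**
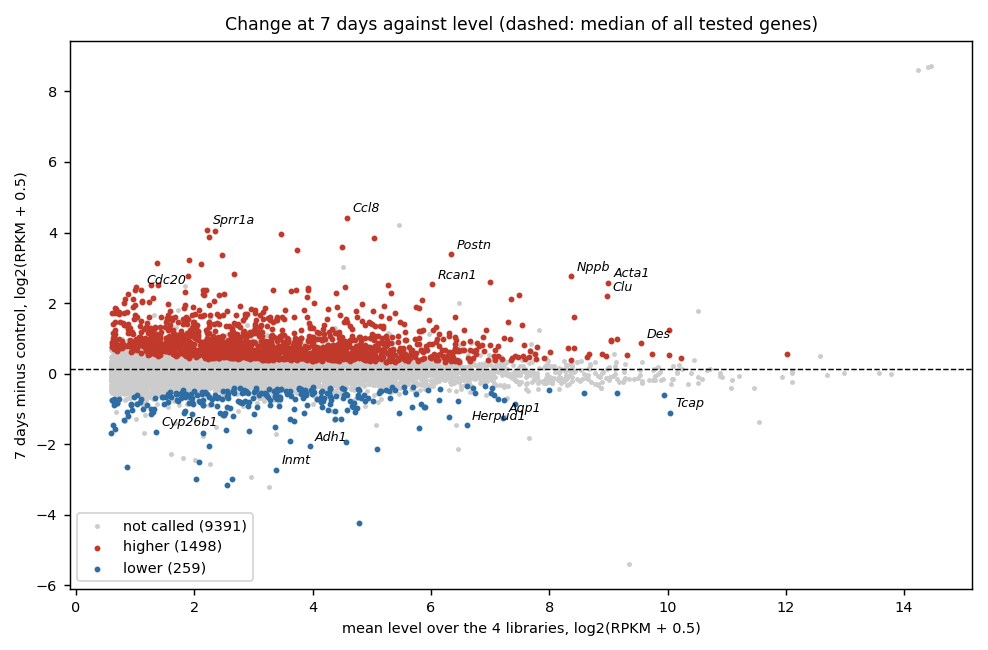
Log2 change at 7 days against control (y axis, on log2(RPKM + 0.5)) against the mean level over the 4 libraries (x axis, same scale), 1 point per tested gene, red where called higher (1498), blue where called lower (259) and grey otherwise. Red points lie on the upper side at all levels, and the dashed line marks the median of all genes, 0.14; the 3 grey points at the top right are Mir208b, Snord55 and Snord82, short RNA genes with a value above 0 in 1 library each.

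Of 37 tested members of the hypertrophic and fetal myocyte list, 19 were higher, 0 lower and 18 not called, with a median log2 change of 0.94. With no level limit 12 of 39 were called higher. With control 1, control 2, the first or the second 7 day library left out, 11, 13, 11 and 13 were called higher. Ankrd23, an ankyrin repeat protein of the sarcomere that responds to stretch, was 53.6 and 73.2 RPKM in the controls and 282 and 309 RPKM at 7 days (log2 change 2.23, SE 0.18; limma adjusted p = 0.000762). It stood at 375 and 294 RPKM at 28 days, so both infused groups lay above both controls. Rcan1, a feedback inhibitor of calcineurin, was 18.3 and 18.96 RPKM in the controls and 108 and 112 RPKM at 7 days, and Acta1, skeletal alpha-actin, went from 125 and 170 RPKM to 870 and 875 RPKM.

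Sprr1a, a small proline-rich protein known from injured epithelium, nerve and stressed myocytes, had a listed value of 0 in each control and of 10.7 and 5.91 RPKM at 7 days (limma adjusted p = 0.000812). By 28 days it stood at 1.10 and 0.405 RPKM, below both 7 day libraries. Mybpc2, the fast skeletal form of myosin binding protein C, rose from 3.61 and 3.47 RPKM to 10.7 and 16.2 RPKM (log2 change 1.76, SE 0.20; limma adjusted p = 0.0027). Des, the muscle intermediate filament desmin, rose from 525 and 537 RPKM to 945 and 996 RPKM (log2 change 0.87, SE 0.10; limma adjusted p = 0.00264). Myh6, the adult cardiac myosin heavy chain, was 4163 and 4401 RPKM in the controls and 4634 and 4465 RPKM at 7 days, and the sign of its small change turned under both scalings (-0.07 with median ratio scaling, -0.03 with quantile normalization). Atp2a2, which encodes the pump that returns calcium to the sarcoplasmic reticulum, overlapped between groups (1857 and 1982 against 1761 and 1938 RPKM). Myh7, the fetal myosin, was 173 and 141 RPKM against 227 and 272 RPKM and missed the threshold (log2 change 0.67, SE 0.29; limma adjusted p = 0.164). Its groups did not overlap, and its widely spread 28 day libraries (421 and 834 RPKM) also entered the SE of this fit.

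Tcap went the other way. It encodes telethonin, which ties titin to the Z-disc, and stood at 1429.9 and 1442 RPKM in the controls and 688 and 643 RPKM at 7 days (log2 change -1.11, SE 0.10; limma adjusted p = 0.00114). At 28 days it was back at 1612 and 1633 RPKM, above both controls, and the rise from 7 to 28 days was itself called (log2 difference 1.29; limma adjusted p = 0.00233). Hspb6 and Hspb7, small heat shock proteins of muscle, were among the heat shock genes called higher: Hspb6 went from 365 and 352 RPKM to 711 and 688 RPKM, and Hspb7 from 359 and 364 RPKM to 658 and 731 RPKM. Of all 40 heat shock genes tested, 7 were higher and 0 lower, and 3 to 5 higher with a library of the 2 groups left out.

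Ion channels and calcium cycling genes showed 9 higher and 4 lower of 55 tested with a median of -0.01, and 1 or 2 higher once any library of the 2 groups was left out. Kcnv2, a modifier subunit of potassium channels, fell from 2.78 and 2.82 RPKM to 1.11 and 0.871 RPKM (log2 change -1.15, SE 0.15; limma adjusted p = 0.00437). Kcnj2, the inward rectifier that sets resting potential, was 10.8 and 9.99 against 6.38 and 4.15 RPKM (limma adjusted p = 0.0167), a call lost without either control (highest limma adjusted p = 0.116) and without the second 7 day library. Cardiac transcription factors and nuclear receptors had 3 higher and 3 lower of 43, and 0 or 1 in each direction with a library of the 2 groups left out.

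Promoter sequence is shown for 2 actin genes that rose, because serum response factor, which binds the CArG box, and TEAD factors, which bind CATTCC, are known regulators of such genes. The windows, from RefSeq on GRCm38.p6, run from 250 bases before to 50 bases after the annotated start, 5′ to 3′ in the direction of the gene. Capitals mark matches, on either strand, to either motif. Acta1 lies at chr8:123894726-123895025, minus strand, with a CArG box 73 bases and a TEAD motif 46 bases upstream, and Actg1 at chr11:120348446-120348745, minus strand, with a CArG box 90 bases upstream.
Acta1: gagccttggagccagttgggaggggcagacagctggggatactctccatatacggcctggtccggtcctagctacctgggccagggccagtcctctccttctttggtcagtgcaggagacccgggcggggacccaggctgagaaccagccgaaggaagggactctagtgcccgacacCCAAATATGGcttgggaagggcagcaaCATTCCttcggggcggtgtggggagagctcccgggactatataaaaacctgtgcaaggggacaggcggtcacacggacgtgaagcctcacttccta
Actg1: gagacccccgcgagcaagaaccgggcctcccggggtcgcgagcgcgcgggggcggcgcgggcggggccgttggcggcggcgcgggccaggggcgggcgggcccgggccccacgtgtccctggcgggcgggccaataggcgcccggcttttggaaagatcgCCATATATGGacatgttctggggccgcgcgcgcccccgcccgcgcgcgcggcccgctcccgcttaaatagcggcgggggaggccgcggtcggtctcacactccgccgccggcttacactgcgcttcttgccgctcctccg
A CArG box stood in 13% of 46 windows of the hypertrophic list and in 1.63% of all 32851 windows, and the TEAD motif in 32.6% and 14.7%. No share was taken for the actin list. The windows of Ankrd23 were searched too and held a TEAD motif but no CArG box, and that of Sprr1a held neither. A match describes letters in the window and is not a measured binding site.

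**Figure D2:**
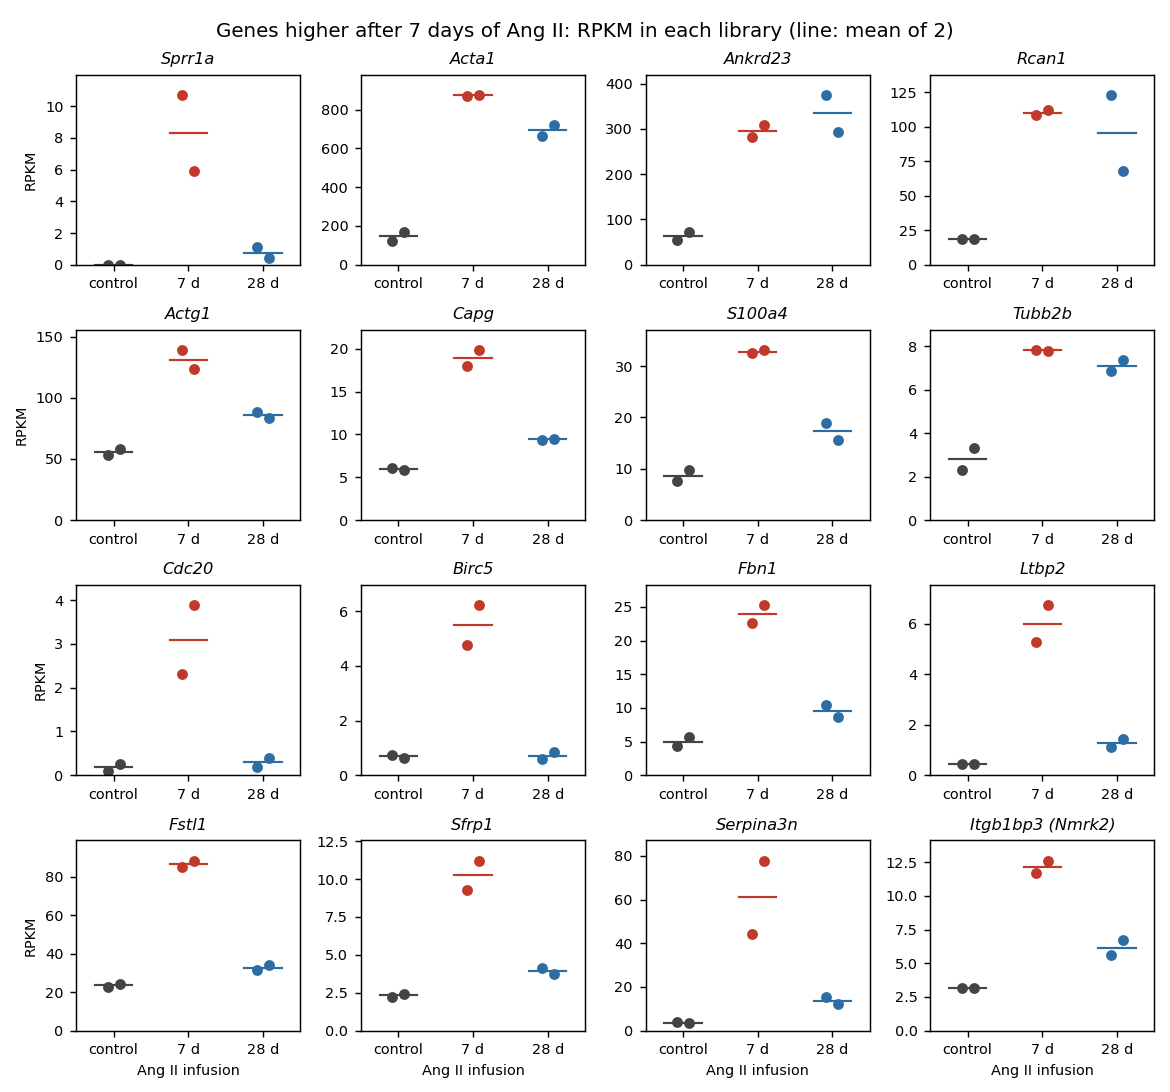
RPKM in each library (y axis, linear from 0) for 16 genes that rose, in controls, 7 day and 28 day hearts (x axis); points are libraries and lines the mean of 2. In all 16 panels both 7 day points lie above both control points, and in Rcan1 and Ankrd23 at least 1 of the 28 day points is higher still.

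Genes of the actin cytoskeleton rose as a broad group. Of 52 tested, 40 were higher and 0 lower and 51 had a positive log2 change, with a median of 0.75. The count was 10, 19, 30 and 16 with control 1, control 2, the first or the second 7 day library left out. Under median ratio scaling 26 of the 52 were higher, and under quantile normalization 30. Actg1, cytoplasmic gamma-actin, was 53.2 and 57.9 RPKM in the controls and 139 and 124 RPKM at 7 days (log2 change 1.23, SE 0.11; limma adjusted p = 0.000901). Capg, which caps actin filament ends and is abundant in macrophages, rose from 6.05 and 5.79 RPKM to 18.0 and 19.8 RPKM (log2 change 1.60, SE 0.11; limma adjusted p = 0.000424). Neither gene's groups overlapped, and both stood lower at 28 than at 7 days (Actg1 88.8 and 84.0 RPKM, Capg 9.37 and 9.46 RPKM). Ckap4, a membrane protein that links the endoplasmic reticulum to microtubules, stayed up instead, with 4.35 and 5.10 RPKM in the controls, 14.3 and 16.4 RPKM at 7 days and 12.8 and 14.2 RPKM at 28 days.

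Tubulin and microtubule genes followed, with 11 of 18 higher, 0 lower and a median of 0.61, and 6 to 8 higher with 1 of the 4 libraries left out. Tubb2b rose from 2.30 and 3.29 RPKM to 7.81 and 7.79 RPKM, Tubb2a from 11.1 and 14.1 RPKM to 28.7 and 28.5 RPKM, and Tuba1a from 33.2 and 37.1 RPKM to 71.5 and 68.1 RPKM. At 28 days Tubb2a stood at 29.8 and 27.9 RPKM and Tubb2b at 6.86 and 7.36 RPKM, near their 7 day levels. Actin and tubulin genes have near-identical copies, so reads may have been divided between paralogs and the level of each single gene is uncertain.

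Annexins and S100 proteins, calcium binding proteins of membranes and the cell cortex, had 13 of 17 members higher and 0 lower (median 0.70), of which 2 passed the level limit only through the 7 day libraries. Without control 1, control 2, the first or the second 7 day library the count was 5, 7, 9 and 6. S100a4, used as a marker of motile fibroblasts and of some leukocytes, rose from 7.52 and 9.74 RPKM to 32.5 and 33.1 RPKM (log2 change 1.88, SE 0.15; limma adjusted p = 0.000762). S100a11 rose from 17.4 and 16.3 RPKM to 51.0 and 55.7 RPKM, and Anxa2 from 46.9 and 54.5 RPKM to 97.9 and 115 RPKM. These genes are not confined to 1 cell type in the heart, and the data do not say which cells carried the transcripts.

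Integrin and focal adhesion genes had 15 of 33 members higher and 0 lower (median 0.42), with 6 to 11 higher when 1 of the 4 libraries was left out. Itga5, the fibronectin receptor subunit, rose from 10.3 and 10.1 RPKM to 19.4 and 22.2 RPKM (log2 change 0.99, SE 0.11; limma adjusted p = 0.00239) and stood at 21.9 and 20.8 RPKM at 28 days. Csrp2, a LIM protein of smooth muscle and fibroblasts, rose from 18.6 and 22.0 RPKM to 43.0 and 39.2 RPKM and was back at 18.2 and 22.0 RPKM at 28 days. Itga5 and Csrp2 thus differed in their 28 day levels, and the difference from 7 to 28 days was called for Csrp2 (log2 difference -1.02; limma adjusted p = 0.0106) and not for Itga5 (0.04; limma adjusted p = 0.841); the difference between the 2 genes was not tested. Cadherins and junction genes had 10 of 34 higher and 1 lower, and 2 to 6 higher with a library left out. Among them Mcam, an adhesion molecule of vessel walls, rose from 11.7 and 11.3 RPKM to 30.7 and 38.7 RPKM.

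Cell cycle genes rose at 7 days from very low control levels. All 89 listed genes were in the table, with a median of 0.445 and 0.439 RPKM in the controls, 1.74 and 2.13 RPKM at 7 days, and 0.383 and 0.404 RPKM at 28 days. Only 54 of them passed the level limit, 25 of these through the 7 day libraries alone, so a count over the tested members favours a rise: it was 34 higher and 0 lower, and 20, 21, 25 and 17 higher without control 1, control 2, the first or the second 7 day library. In a fit with no level limit, 52 of all 89 were higher and 0 lower (median 0.92), beside 7.04% higher and 1.03% lower of all 17255 genes in that fit. At or above 1 RPKM there were 29 and 30 of the 89 in the controls, 61 and 72 at 7 days, and 28 and 26 at 28 days.

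Cdc20, the activator of the anaphase promoting complex, was 0.0926 and 0.265 RPKM in the controls and 2.30 and 3.88 RPKM at 7 days (log2 change 2.38, SE 0.28; limma adjusted p = 0.00279). Birc5, the chromosomal passenger protein survivin, rose from 0.752 and 0.621 RPKM to 4.75 and 6.21 RPKM (log2 change 2.32, SE 0.19; limma adjusted p = 0.000812), and Ckap2, a spindle protein, from 0.123 and 0.147 RPKM to 3.56 and 2.13 RPKM. The 7 day libraries lay above all controls and all 28 day libraries for each of these genes. Cdkn1a, the p21 inhibitor of cyclin-dependent kinases, rose beside them from 5.29 and 7.30 RPKM to 25.1 and 53.4 RPKM (log2 change 2.47, SE 0.35; limma adjusted p = 0.00537). Its level at 28 days, 49.5 and 33.4 RPKM, overlapped with that at 7 days, while Cdc20 stood at 0.188 and 0.399 RPKM and Birc5 at 0.580 and 0.844 RPKM at 28 days. Tnfrsf12a, the receptor of the cytokine TWEAK, went the same way as Cdkn1a: 20.4 and 24.0 RPKM, then 83.5 and 84.2 RPKM, then 187 and 120 RPKM at 28 days. Which cells divided, or whether any did, cannot be read from these transcript levels, and macrophage, fibroblast and myofibroblast markers were higher in the same libraries; their part was not tested.

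**Figure D3:**
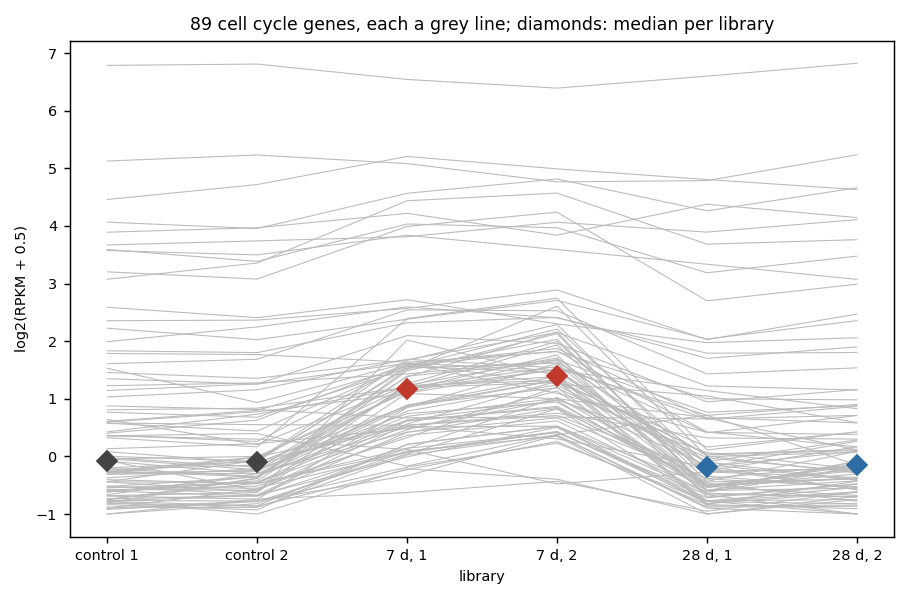
Level of each of the 89 listed cell cycle genes (grey lines, y axis in log2(RPKM + 0.5)) in the 6 libraries (x axis), with diamonds for the median of the list in each library. The medians are -0.08 and -0.09 in the controls, 1.17 and 1.39 at 7 days, and -0.18 and -0.15 at 28 days; the lines join libraries of 1 gene and have no time order within a group.

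Promoters of mitotic genes are known for CCAAT boxes, bound by the factor NF-Y, near a cell cycle homology region (CHR), bound by the DREAM and MuvB complexes, so the windows of Ube2c and Cdc20, which hold both motifs, are shown; the window of Birc5 was searched too and held neither. Ube2c, the ubiquitin conjugating enzyme of the anaphase promoting complex, was 0.196 and 0.281 RPKM in the controls and 2.35 and 5.60 RPKM at 7 days. Windows and strand are as above, from RefSeq on GRCm38.p6, and capitals mark CCAAT or TTTGAA on either strand. Ube2c lies at chr2:164769679-164769978, plus strand, with 6 CCAAT matches, a pair of which overlap, and TTTGAA 29 bases upstream, and Cdc20 at chr4:118437294-118437593, minus strand, with CCAAT 53 and 8 bases and TTTGAA 18 bases upstream.
Ube2c: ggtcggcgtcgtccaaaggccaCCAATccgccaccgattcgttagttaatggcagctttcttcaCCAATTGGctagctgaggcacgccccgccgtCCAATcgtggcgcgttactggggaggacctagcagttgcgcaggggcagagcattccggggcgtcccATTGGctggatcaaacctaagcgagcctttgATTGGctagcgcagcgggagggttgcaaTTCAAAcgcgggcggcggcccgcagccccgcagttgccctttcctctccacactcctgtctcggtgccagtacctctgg
Cdc20: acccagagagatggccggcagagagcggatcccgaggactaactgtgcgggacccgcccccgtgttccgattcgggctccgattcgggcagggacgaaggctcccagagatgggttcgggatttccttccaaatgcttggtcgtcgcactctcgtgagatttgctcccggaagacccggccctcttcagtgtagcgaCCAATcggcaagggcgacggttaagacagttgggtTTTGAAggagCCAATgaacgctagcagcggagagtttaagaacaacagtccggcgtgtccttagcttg
Both motifs stood in 42.2% of 83 windows of listed cell cycle genes and in 6.95% of all 32851 windows, CCAAT in 67.5% and 37.4%, and TTTGAA in 48.2% and 17.9%.

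Beyond collagens, the elastic fibre list had the highest share of calls of all 47 topical lists in the fit of all libraries, with 18 of 22 members higher, 0 lower and a median of 1.27. Between 14 and 17 stayed called with 1 of the 4 libraries left out. Of the 22, 1 passed the level limit only through the 7 day libraries, and with no limit 19 of 25 were higher. Fbn1, fibrillin-1, the backbone of microfibrils, rose from 4.33 and 5.65 RPKM to 22.6 and 25.2 RPKM (log2 change 2.16, SE 0.16; limma adjusted p = 0.000533). Ltbp2, a fibrillin partner that does not bind TGF-beta, rose from 0.459 and 0.438 RPKM to 5.26 and 6.72 RPKM (log2 change 2.77, SE 0.18; limma adjusted p = 0.000424), and Mfap4, a microfibril protein, from 12.7 and 13.5 RPKM to 62.8 and 68.9 RPKM. Lox, which crosslinks elastin and collagen, was 0.909 and 1.14 RPKM in the controls and 6.003 and 7.74 RPKM at 7 days. Eln, elastin itself, was 9.04 and 12.8 against 32.7 and 57.6 RPKM (limma adjusted p = 0.00689) and lost its call without control replicate 1 (limma adjusted p = 0.0531).

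Proteoglycans and glycan synthesis genes had 17 of 32 tested members higher and 0 lower (median 0.55), and 6, 9, 11 and 8 without control 1, control 2, the first or the second 7 day library. Of the 32, 1 passed the level limit only through the 7 day libraries, and with no limit 14 of 49 were higher. Bgn, biglycan, was the most abundant of those named and rose from 55.0 and 65.9 RPKM to 237 and 296 RPKM (log2 change 2.13, SE 0.15; limma adjusted p = 0.000431). Vcan, the large provisional matrix proteoglycan versican, rose from 1.24 and 1.53 RPKM to 5.17 and 5.65 RPKM. Small leucine-rich members of tendon and cartilage moved with them: Fmod from 1.50 and 1.73 RPKM to 4.63 and 6.13 RPKM, and Aspn from 14.1 and 14.4 RPKM to 37.5 and 32.9 RPKM. At 28 days Fmod (1.47 and 1.78 RPKM) and Aspn (13.8 and 14.8 RPKM) overlapped the controls, while Vcan was between the groups at 3.47 and 2.80 RPKM.

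Tendon and cartilage genes outside these lists appeared too. Of 37 listed cartilage and bone genes only 14 were tested, 10 of them higher and 0 lower, with 12 of 33 higher in the fit with no level limit. Comp, cartilage oligomeric matrix protein, rose from 1.16 and 1.71 RPKM to 7.25 and 10.5 RPKM (log2 change 2.27, SE 0.28; limma adjusted p = 0.00323), and the growth factor Ptn from 0.727 and 1.003 RPKM to 4.71 and 3.62 RPKM. Scx, the tendon transcription factor scleraxis, was 1.31 and 1.92 against 5.43 and 6.52 RPKM (limma adjusted p = 0.0078) and stood at 5.41 and 9.38 RPKM at 28 days, though its call was lost without control replicate 1 and without the second 7 day library (highest limma adjusted p = 0.0752).

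Matricellular and glycoprotein genes had 27 of 43 members higher and 0 lower (median 0.93), and 20 to 27 with a library left out. Of the 43, 6 passed the level limit only through the 7 day libraries, and with no level limit 26 of 48 were higher. Tnc, tenascin-C, an early wound matrix protein, rose from 0.108 and 0.134 RPKM to 2.87 and 2.99 RPKM. Spon2, a secreted protein of innate immunity, rose from 0.253 and 0.587 RPKM to 7.54 and 6.96 RPKM. Thbs1, which can activate latent TGF-beta, rose from 1.17 and 0.976 RPKM to 11.98 and 9.35 RPKM (log2 change 2.82, SE 0.38; limma adjusted p = 0.00434) and stood at 10.3 and 3.79 RPKM at 28 days. Ctgf, a matricellular target of TGF-beta and YAP, scattered widely (21.6 and 42.9 against 218 and 69.8 RPKM) and missed the threshold although its groups did not overlap (log2 change 2.00, SE 0.65; limma adjusted p = 0.0794). Its 28 day libraries, 342 and 115 RPKM, were also far apart and entered the SE of this fit.

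Matrix proteases rose with the matrix. Metalloproteinases and their inhibitors had 15 of 29 tested members higher and 2 lower, and 6, 8, 12 and 7 higher without control 1, control 2, the first or the second 7 day library. Of the 29, 2 passed the level limit only through the 7 day libraries. With no limit 17 of 52 were higher and 2 lower. Mmp14, the membrane protease that activates other metalloproteinases, rose from 2.78 and 2.74 RPKM to 15.5 and 17.4 RPKM (log2 change 2.38, SE 0.12; limma adjusted p = 0.000204). Adamts2, which trims procollagen, rose from 3.11 and 3.40 RPKM to 10.4 and 13.5 RPKM, and Adam19 from 2.91 and 3.06 RPKM to 9.75 and 11.9 RPKM. In the plasminogen and serpin list 15 of 26 were higher and 2 lower, and 8 to 10 higher with a library left out; 3 passed the level limit only through the 7 day libraries, and with no limit 14 of 35 were higher. It held the activator Plat, tissue plasminogen activator (5.80 and 6.56 against 14.5 and 16.05 RPKM), and Serpinf1, an anti-angiogenic serpin (15.9 and 15.7 against 43.6 and 46.0 RPKM).

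Machinery that folds and exports matrix proteins moved by less. Collagen folding and secretion genes had 20 of 45 higher and 0 lower with 43 positive changes and a median of 0.45, but 0 higher without control replicate 1, 3 without control replicate 2, 7 without the first and 0 without the second 7 day library. Translocon and signal peptidase genes had 9 of 32 higher (0, 1, 3 and 1 in the same fits) and chaperones of the unfolded protein response 5 of 31 higher and 1 lower (0, 2, 3 and 1 higher). The lower one was Herpud1, a component of endoplasmic reticulum degradation that stress normally induces, at 140 and 144 RPKM in the controls and 46.3 and 56.2 RPKM at 7 days (log2 change -1.47, SE 0.16; limma adjusted p = 0.00241). Its call stood with each library left out, and it was 48.1 and 65.2 RPKM at 28 days. Nupr1, a stress-induced chromatin protein of the ATF4 list, rose from 8.595 and 10.6 RPKM to 25.2 and 26.6 RPKM, while Cth, the last enzyme of cysteine synthesis and an ATF4 target, fell from 2.02 and 1.58 RPKM to 0.236 and 0.201 RPKM.

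In the TGF-beta, activin and BMP list 10 of 35 were higher and 2 lower, and 3 to 7 higher with a library left out. Fstl1, a secreted follistatin-like glycoprotein, rose from 22.9 and 24.3 RPKM to 85.3 and 88.5 RPKM (log2 change 1.86, SE 0.10; limma adjusted p = 0.000253), and Nbl1, a BMP antagonist, from 4.86 and 5.83 RPKM to 12.6 and 14.4 RPKM. In the Wnt list 6 of 24 were higher and 0 lower, and 4 or 5 with a library left out; 3 passed the level limit only through the 7 day libraries, and with no limit 7 of 55 were higher. The 3 named secreted frizzled-related proteins, which bind Wnt ligands outside the cell, were among them: Sfrp1 rose from 2.25 and 2.43 RPKM to 9.29 and 11.2 RPKM, Sfrp2 from 0.654 and 1.21 RPKM to 5.96 and 7.82 RPKM, and Frzb from 1.42 and 1.35 RPKM to 4.86 and 5.18 RPKM. Wisp2, a matricellular protein of the same list, rose from 3.35 and 3.91 RPKM to 11.8 and 13.3 RPKM.

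Growth factor genes had 13 of 47 higher and 1 lower (median 0.33), and 5 to 10 higher with a library left out; 4 passed the level limit only through the 7 day libraries, and with no limit 12 of 68 were higher. Igf1, a growth factor made by fibroblasts and macrophages, rose from 1.51 and 1.68 RPKM to 3.81 and 4.07 RPKM (log2 change 1.08, SE 0.14; limma adjusted p = 0.00377). Igfbp7, a secreted binding protein, rose from 99.0 and 105 RPKM to 251 and 287 RPKM, and Kdr, the main VEGF receptor of endothelium, from 16.7 and 18.8 RPKM to 35.1 and 38.9 RPKM. The summed endothelial markers, Kdr among them, were 2492 and 2211 RPKM in the controls and 2414 and 2645 RPKM at 7 days. Most of this sum was Fabp4 (1144 and 994 against 1211 and 1324 RPKM) and Cd36 (434 and 437 against 443 and 432 RPKM). The sum therefore says little about the other markers. Of the 18 markers, 13 had a positive log2 change, with a median of 0.23, beside 0.14 for all tested genes. Angiopoietin and tip cell genes had 8 of 45 higher and 1 lower, and 0 to 3 higher with a library left out; semaphorins, ephrins, slits and netrins had 3 of 36 higher and 1 lower.

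Aqp1 was the 1 endothelial marker called lower. It encodes the main water channel of cardiac capillaries and fell from 227 and 191 RPKM to 92.1 and 83.4 RPKM (log2 change -1.24, SE 0.15; limma adjusted p = 0.00279). At 28 days it was 136 and 172 RPKM, higher than at 7 days (log2 difference 0.80; limma adjusted p = 0.0286). Of the other 17 endothelial markers 4 were called higher and 13 were not called, among them Car4, a capillary carbonic anhydrase, at 26.4 and 21.4 against 12.4 and 17.2 RPKM.

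Acute phase, complement and lysosomal genes rose beside the chemokines. In the IL-6 family and acute phase list 18 of 31 were higher and 0 lower (median 0.62), and 6, 9, 17 and 6 without control 1, control 2, the first or the second 7 day library; 6 members passed the level limit only through the 7 day libraries, and with no limit 16 of 49 were higher. Serpina3n, a secreted inhibitor of serine proteases with close paralogs, rose from 3.71 and 3.48 RPKM to 44.3 and 77.8 RPKM (log2 change 3.86, SE 0.25; limma adjusted p = 0.000424). Ptx3, a long pentraxin, rose from 0.171 and 0.244 RPKM to 1.68 and 1.99 RPKM. Il6 itself lay under the level limit and was not tested.

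Complement genes had 21 of 31 higher and 0 lower (median 0.80), and 8, 10, 17 and 6 in the same left-out fits. Clu, clusterin, an extracellular chaperone that restrains the terminal complex and is also high in atrial myocytes, rose from 159 and 202 RPKM to 787 and 870 RPKM (log2 change 2.20, SE 0.15; limma adjusted p = 0.000431). C4b, the fourth component, rose from 2.90 and 2.92 RPKM to 8.53 and 12.8 RPKM, but it shares nearly all of its sequence with C4a and its level is uncertain. C3 was 15.7 and 22.3 against 45.2 and 71.0 RPKM (limma adjusted p = 0.0109), a call lost without control replicate 1 and without the second 7 day library (highest limma adjusted p = 0.0767).

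Lysosomal genes had 29 of 45 higher and 1 lower (median 0.49), and 6, 8, 17 and 12 higher without control 1, control 2, the first or the second 7 day library. Ctss, the cathepsin of antigen-presenting cells, rose from 20.3 and 18.9 RPKM to 42.5 and 61.4 RPKM, and Ctsk, a collagen-degrading cathepsin, from 3.24 and 3.37 RPKM to 8.55 and 7.20 RPKM. At 28 days Ctss stood at 16.9 and 15.7 RPKM, below both controls, and Ctsk at 3.93 and 3.78 RPKM. Chemokines and their receptors had 13 of 26 higher and 1 lower, and 4 to 8 higher with a library left out; 5 passed the level limit only through the 7 day libraries, and with no limit 14 of 44 were higher and 1 lower. The receptors that mark monocytes rose alike, Ccr2 from 0.767 and 0.898 RPKM to 3.54 and 3.57 RPKM and Cx3cr1 from 1.09 and 1.09 RPKM to 4.20 and 3.88 RPKM, as did the Ccr2 ligand Ccl2, from 1.52 and 2.80 RPKM to 10.3 and 6.69 RPKM. Interferon response and MHC genes had 10 of 53 higher and 1 lower, and 2 to 5 higher with a library left out.

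Atf3, a stress-induced transcription factor, was the member of the immediate early list whose call stood in every left-out fit: 1.86 and 2.10 RPKM in the controls, 7.6004 and 7.35 RPKM at 7 days and 11.7 and 9.96 RPKM at 28 days (log2 change 1.69, SE 0.13; limma adjusted p = 0.000614). The list had 10 of 38 higher and 0 lower, and 1, 3, 3 and 4 higher without control 1, control 2, the first or the second 7 day library.

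**Figure D4:**
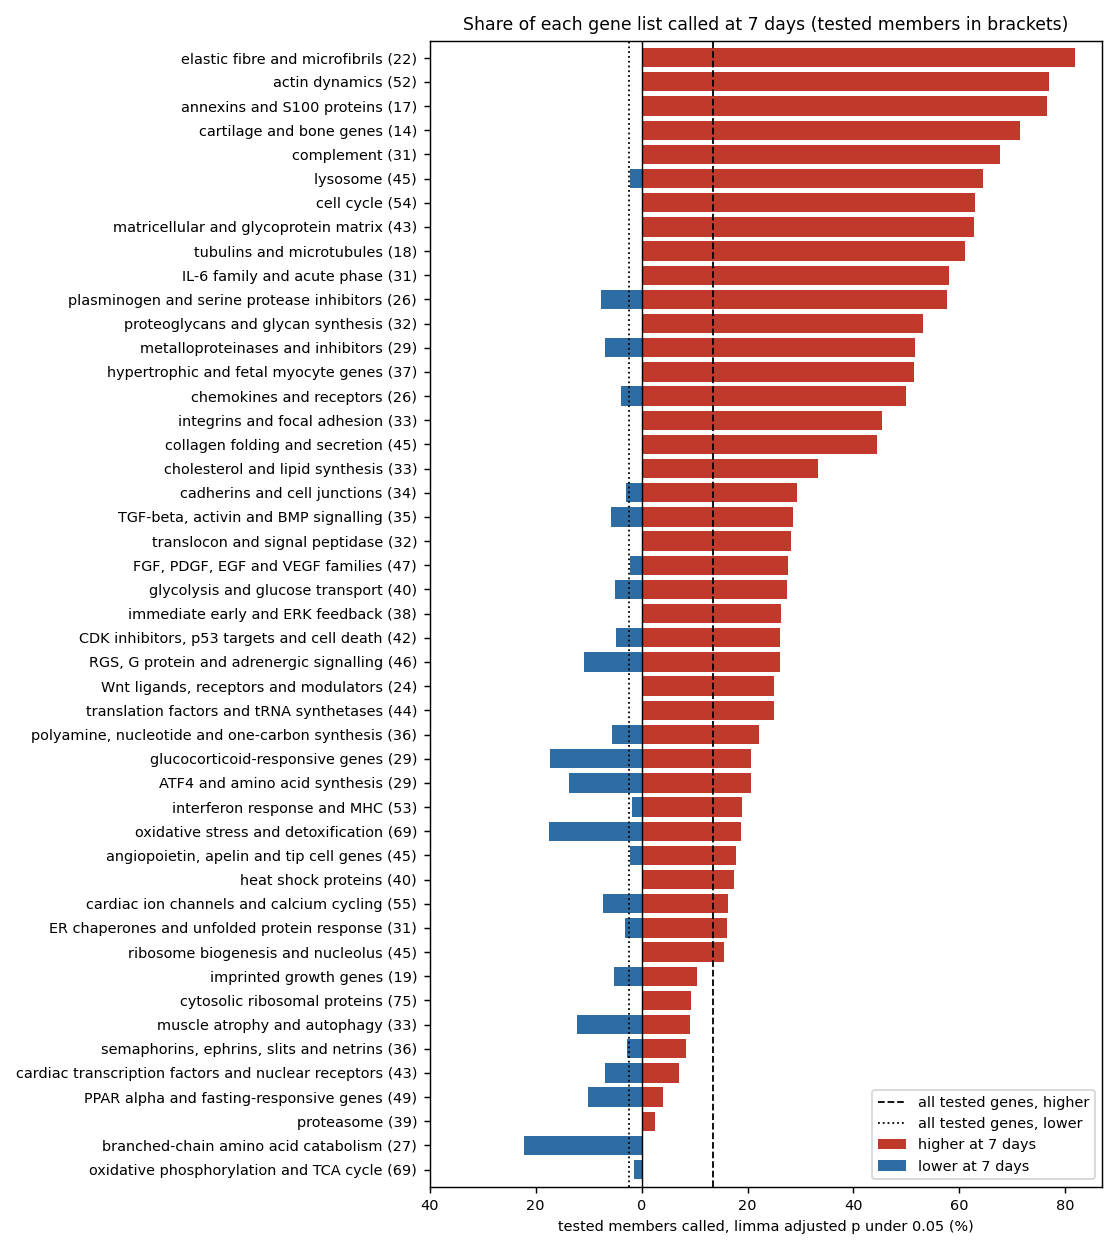
Percent of the tested members of each of 47 gene lists that limma called higher (red, to the right) or lower (blue, to the left) at 7 days, with the number of tested members in brackets. The dashed and dotted lines are the shares over all tested genes, 13.4% higher and 2.32% lower; elastic fibre and actin genes lie farthest to the right and branched-chain amino acid genes farthest to the left.

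Genes that fell were fewer and included enzymes of several metabolic pathways. The oxidative stress and detoxification list had 13 of 69 higher and 12 lower, and 3 to 9 higher and 4 to 7 lower with a library left out. Under median ratio scaling and under quantile normalization it had 5 higher and 13 lower. Inmt, a methyltransferase of small amines, fell from 19.5 and 15.8 RPKM to 2.02 and 2.46 RPKM (log2 change -2.72, SE 0.32; limma adjusted p = 0.00279). Fmo2, a flavin monooxygenase, fell from 16.1 and 13.4 RPKM to 4.26 and 5.50 RPKM (log2 change -1.51, SE 0.19; limma adjusted p = 0.00336) and was 11.98 and 8.74 RPKM at 28 days. On the rising side stood Tfrc, the transferrin receptor that takes up iron, at 8.17 and 10.1 against 31.9 and 23.6 RPKM.

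Enzymes of retinoic acid changed in opposite directions. Aldh1a2, which makes retinoic acid and is known from epicardium and fibroblasts, rose from 1.07 and 1.70 RPKM to 7.71 and 8.87 RPKM (log2 change 2.24, SE 0.18; limma adjusted p = 0.000762). Cyp26b1, which degrades retinoic acid, fell from 4.005 and 2.74 RPKM to 0.837 and 0.624 RPKM (log2 change -1.64, SE 0.21; limma adjusted p = 0.0035), and Adh1, an alcohol dehydrogenase that can oxidise retinol, fell from 28.5 and 20.4 RPKM to 5.01 and 5.86 RPKM. Cyp26b1 was still at 0.806 and 0.966 RPKM at 28 days, whereas Adh1 had come up to 12.4 and 15.6 RPKM (log2 difference from 7 days 1.28; limma adjusted p = 0.0144). These 3 genes were set side by side after their values were seen.

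Genes of NAD supply were likewise split. Nampt, the rate-limiting enzyme of the salvage of nicotinamide, fell from 69.3 and 64.5 RPKM to 34.2 and 35.0 RPKM (log2 change -0.94, SE 0.10; limma adjusted p = 0.00185). Itgb1bp3, the older symbol of Nmrk2, a muscle kinase that makes NAD precursors from nicotinamide riboside, rose from 3.13 and 3.16 RPKM to 11.7 and 12.6 RPKM (log2 change 1.80, SE 0.12; limma adjusted p = 0.000431). Nnmt, which methylates nicotinamide, rose from 2.18 and 2.46 RPKM to 5.06 and 4.93 RPKM. The groups did not overlap for any of the 3, which were also put together after their values were seen. At 28 days Nampt was 29.8 and 27.9 RPKM and Itgb1bp3 5.59 and 6.69 RPKM.

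Branched-chain amino acid catabolism had 0 of 27 higher and 6 lower with a median of -0.26, and 23 of the 27 changes were negative. The count of lower genes was 0, 1, 3 and 1 without control 1, control 2, the first or the second 7 day library, but 13 with median ratio scaling and 15 with quantile normalization. Dbt, the core subunit of the branched-chain keto acid dehydrogenase, was 24.4 and 23.4 against 15.1 and 14.1 RPKM (log2 change -0.69, SE 0.10; limma adjusted p = 0.00634), a call lost without control replicate 1 and without the second 7 day library (highest limma adjusted p = 0.0728). Oxidative phosphorylation and citrate cycle genes had 1 of 69 lower and 0 higher (median -0.13), with 4 lower under median ratio scaling and 8 under quantile normalization. PPAR alpha and fasting-responsive genes had 5 of 49 lower and 2 higher, with 10 and 14 lower under the same 2 scalings and 0, 1, 6 and 1 lower without control 1, control 2, the first or the second 7 day library. Of the 2 higher ones, Bdh1, the mitochondrial ketone body dehydrogenase, rose from 9.38 and 10.6 RPKM to 30.6 and 35.3 RPKM (log2 change 1.67, SE 0.17; limma adjusted p = 0.00177) and Cidea, a lipid droplet protein, from 17.6 and 16.7 RPKM to 32.9 and 29.1 RPKM.

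Glycolysis and glucose transport genes had 11 of 40 higher and 2 lower, and 2, 2, 5 and 3 higher without control 1, control 2, the first or the second 7 day library. Pfkp, the platelet form of phosphofructokinase, rose from 11.1 and 12.95 RPKM to 23.3 and 28.6 RPKM, and Pgam1, the non-muscle phosphoglycerate mutase, from 16.5 and 16.2 RPKM to 28.9 and 36.0 RPKM. Cholesterol and lipid synthesis genes had 11 of 33 higher and 0 lower (median 0.50), but 1 to 4 with a library left out; Fads2, a desaturase of polyunsaturated fatty acids, rose from 1.005 and 1.09 RPKM to 2.87 and 2.94 RPKM.

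Several single genes fell by more than 2-fold and stayed low. Slc25a33, a mitochondrial pyrimidine nucleotide carrier, fell from 17.0 and 19.1 RPKM to 6.65 and 6.85 RPKM (log2 change -1.35, SE 0.11; limma adjusted p = 0.000762) and was 8.01 and 8.17 RPKM at 28 days. Gpcpd1, a phosphodiesterase of choline metabolism, fell from 117 and 105 RPKM to 45.4 and 48.6 RPKM and was 42.7 and 47.8 RPKM at 28 days. Il15, a cytokine that muscle makes and that sustains natural killer cells, fell from 26.9 and 23.6 RPKM to 12.6 and 11.6 RPKM and was 13.8 and 12.5 RPKM at 28 days. For all 3 the infused libraries of both times lay below both controls, and none passed the limma test between 7 and 28 days (lowest adjusted p = 0.237). Usp2, a deubiquitinase whose level follows the time of day in many tissues, fell from 29.1 and 28.4 RPKM to 10.2 and 13.1 RPKM, and the labels give no time of day.

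**Figure D5:**
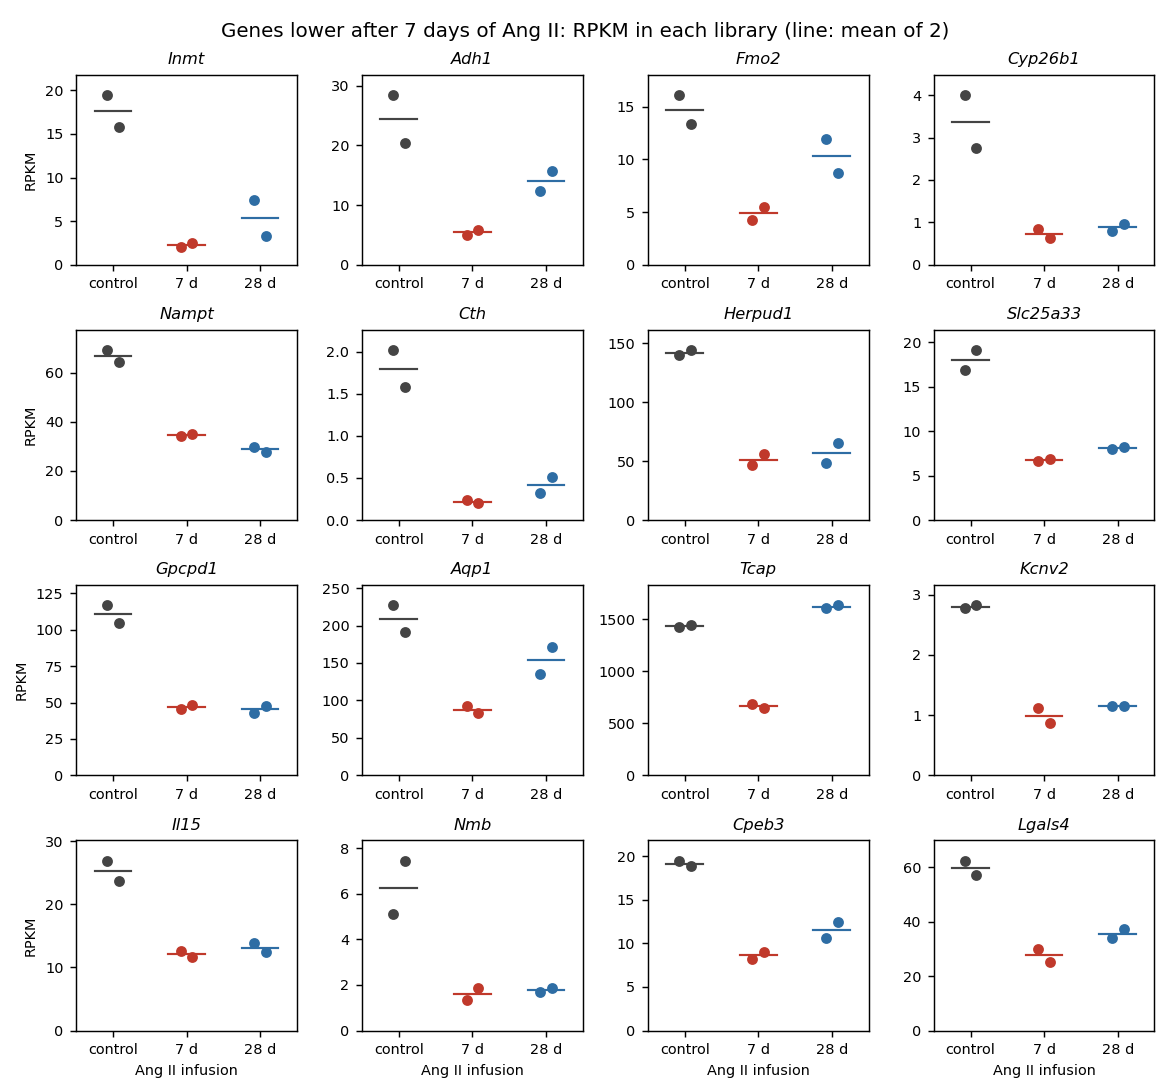
RPKM in each library (y axis, linear from 0) for 16 genes that fell, in controls, 7 day and 28 day hearts (x axis); points are libraries and lines the mean of 2. Both 7 day points lie below both control points in every panel, and Tcap is the gene whose 28 day points both exceed the controls.

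Cytosolic ribosomal protein genes had 7 of 75 higher and 0 lower, and 0 higher under both scalings, and ribosome biogenesis genes 7 of 45 higher and 0 lower. Translation factors and tRNA synthetases had 11 of 44 higher and 0 lower, and 0, 1, 2 and 1 without control 1, control 2, the first or the second 7 day library. Among 39 proteasome genes 1 was higher, and 3 of 33 atrophy and autophagy genes were higher and 4 lower.

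Markers of other cell types were summed in the same libraries. Myofibroblast markers summed to 91.8 and 109 RPKM in the controls and 430 and 377 RPKM at 7 days, with 11 of 13 tested higher and 1 lower. Of the 13, 3 passed the level limit only through the 7 day libraries. With no limit 10 of 15 were higher and 0 lower. Fibroblast markers summed to 1129 and 1157 against 1582 and 1580 RPKM, with 9 of 16 higher. Neutrophil markers summed to 5.56 and 4.79 against 13.3 and 26.3 RPKM, with 2 of 13, Elane and Mpo, at 0 in all 4 libraries. Of the 3 neutrophil markers tested, 1 was called higher, Lcn2 (3.26 and 2.82 against 6.03 and 12.4 RPKM), and 0 or 1 with a library left out. Markers of T and NK cells were low in all 4 (6.13 to 7.99 RPKM summed over 22 genes), and those of Schwann cells and neurons summed to 10.4 to 11.2 RPKM. The part of any of these cell types in the changes above was not tested. Hbb-b2, a beta globin gene, was 0 and 0.000606 RPKM in the controls and 14.1 and 4.25 RPKM at 7 days, but near-identical beta globin copies make its level uncertain.

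Counts over all 252 named genes were 246 called at 7 days, of which 125 stayed called with each of the 6 libraries left out. Between 28 and 7 days 97 of the 252 differed by limma, beside 4.66% of all genes lower and 0.431% higher at 28 days. That count fell to 20 without the second 7 day library and 47 without the first. It shares the 7 day libraries with the comparison against control, so the 2 are not independent.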

How the data were processed

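The authors deposited whole mouse heart RNA sequencing as RPKM per gene and library (unit per the file headers). TopHat2 2.0.12, HTSeq, Bowtie 0.12.9 and DESeq2 stand, with no roles, in the submitters' processing notes beside builds mm8 and mm9; what made the RPKM, and its annotation, is not given in the sources used here. No counts were used, so depth is known only relative to control replicate 1, from the commonest ratio of low values, and intervals from counts cannot be given. RPKM divides by length, so very short RNA genes take extreme values, and 0.5 added before the log shrinks changes of low genes. Genes with a mean of at least 1 RPKM over the 4 libraries compared were fitted in limma 3.58.1 (R 4.3.3) over all 6 libraries with group means and a trend of variance on level (3 residual and 4.3 prior degrees of freedom). P-values were Benjamini-Hochberg adjusted over 11148 genes. On simulated data, 93% of 2-fold and 99% of 4-fold changes were called, with 8 false calls. The simulated noise was normal, at each gene's fitted variance, and independent between genes. It held no shifts of whole libraries or of tissue content, so these rates do not cover such differences.

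The members and the 47 topical and 18 marker lists were chosen with earlier results of these data known. Of 2356 list entries 12 were matched by a synonym and 18 were not found in the table. Some further lists had tested members that passed the level limit only through the 7 day libraries. There were 2 each in the heat shock, glycolysis, cholesterol and lipid, immediate early, cartilage and collagen folding lists. The hypertrophic, lysosome, oxidative stress, angiopoietin and ribosome biogenesis lists had 1 each. Named genes were the 20 highest and 20 lowest that were called, did not overlap and stood with each library left out (no predicted or merged symbols, and no collagen, clock or macrophage list members), up to 5 called members per other list with the largest change, and Nppa, Myh6, Myh7, Atp2a2, Ctgf, Agtr1a, Il6 and Cdkn1a; only some are described, and counts include genes not reported here. Promoters were matched by symbol to RefSeq windows on GRCm38.p6, found for 7936 tested genes; no other coordinates were used. Alternatives were other pseudocounts (0.1 and 1), no filter, a mean of at least 5 RPKM, 2 scalings, no trend, the 4 libraries alone, a replicate block, an unadjusted p under 0.05 with a fold over 2, and each library left out. Tables and figures were made in Python 3.11.15 (pandas 2.3.3, numpy 2.4.6, matplotlib 3.10.9).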

Additional observations from a re-analysis of the deposited data

Results flagged for a closer look

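Of the 40 genes taken for the largest changes at 7 days, 18 that are described here also differed between 28 and 7 days by limma, a test of the difference between the 2 infusion times. Because the 7 day libraries enter both comparisons, a large 7 day value makes such a difference more likely, and this was not tested in other samples. Lower at 28 than at 7 days, on the log2(RPKM + 0.5) scale, were Ccl8, a monocyte chemokine, by -1.99, Sprr1a by -2.82, Serpina3n by -2.06 and Ube2c by -2.03. Secreted and matrix genes lower at 28 days were Thbs4 by -2.09, Cthrc1 by -2.98, Timp1 by -2.21, Cilp by -1.63, Postn by -2.50, Spp1 by -2.70, Spon2 by -1.44, Ltbp2 by -1.87 and Tnc by -1.98. Hbb-b2 was lower by -4.02, with the uncertainty of its near-identical copies. Of the genes that had fallen at 7 days, Adh1 was higher at 28 days by 1.28, Fmo2 by 1.01, Aqp1 by 0.80 and Tcap by 1.29.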

How the results depend on the processing

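With 2 libraries per group the count of calls rests on each library. When 1 of the 6 libraries was left out, genes higher at 7 days ranged from 361 to 1977 (1498 in all libraries) and genes lower at 7 days from 54 to 369 (259), with the low ends without control replicate 1; called named genes at 7 days ranged from 131 to 248 (246), and those that differed between 28 and 7 days from 20 to 106 (97). Median ratio scaling gave 763 higher and 446 lower, quantile normalization 745 and 565, and an unadjusted p under 0.05 with a fold over 2 gave 401 and 63, with 158 named genes. Named genes that differed between 28 and 7 days numbered 55 with no filter on low values, where more genes were tested (17255). They numbered 64 at a mean of at least 5 RPKM, where fewer were tested (6641) and named genes under that limit dropped out. The number of lists above the median of all genes, 37 of 47, stayed between 34 and 39 in the settings in which it was computed. The causes of the other shifts were not tested.

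Among the named genes, signs turned for small changes only. At 7 days Myh6 was -0.070 under median ratio scaling and -0.032 under quantile normalization; with a library left out Agtr1a ranged from -0.24 to 0.17 and Atp2a2 from -0.12 to 0.014. Between 28 and 7 days, under the same 2 scalings, Gpcpd1 was 0.089 and 0.011 and Slc46a3 0.021 and 0.086. With a library left out, that difference ranged from -0.70 to 0.16 for Rcan1, from -0.39 to 0.69 for Cdkn1a, from -0.032 to 0.33 for Nmb, from -0.083 to 0.35 for Herpud1, from -0.14 to 0.025 for Gpcpd1 and from -0.27 to 0.067 for Slc46a3.

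Replicate numbers occur in all groups, but libraries with the same number did not all deviate together (correlation 0.151 between control and 7 days, -0.023 between control and 28 days and -0.012 between 7 and 28 days), so they were not taken as pairs. With a replicate block 1335 genes were higher and 226 lower, 237 named genes were called at 7 days and 89 differed between 28 and 7 days.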
